A study of Mus musculus with 23 samples.

Results

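The mRNAs of globin and erythroid genes, which belong to red cells and their precursors, were measured in whole mouse brain as a reading of the blood left in each brain. The members were all non-control array probes whose gene name was Hba-a1, Hbb-b1, Hbb-b2, Alas2, or Slc4a1. The rule found 5 probes of the 39429 on the array, 1 for each of 5 genes of the 30919 named genes. The lists of other genes in the text hold further globins, genes of heme, iron, and red cells, and markers of the cell types that a whole brain can hold.

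All mice were male and came from C57BL/6J embryos made by in vitro fertilization, which were carried by ICR females, delivered by cesarean section, nursed by ICR foster mothers, and given the control diet after weaning. The recipient females ate a control diet (CD) with 20% casein and 0.02% folic acid, a protein-restricted diet (PR) with 5% casein and 0.02% folic acid, or the protein-restricted diet with 0.1% folic acid (FA). The paper's methods give foster mothers the control diet, but its results describe foster mothers that had eaten CD, PR, or FA. Brains were taken at 19 weeks of age after behavioral tests, rinsed in phosphate-buffered saline, and frozen, and the methods describe no perfusion, the step that washes blood out of the vessels. Each group had 4 arrays, read here as 1 mouse each without pooling. The paper does not give the recipient female, litter, or foster mother of each mouse. Mice of a diet may share them, and the tests treat the mice as independent.

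Hemoglobin is built from α and β globin chains, and each chain holds a heme group that binds oxygen. Mature red cells have no nucleus, yet the youngest of them, the reticulocytes, still carry globin mRNA and remains of the messages made in the bone marrow. Globin mRNA has also been found in some neurons and glia, so a globin signal in brain tissue need not come from blood alone.

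Every array held 43020 spots for these probes. The number of spots well above the local background, by the mark of the scanner software, was 27068 to 28458 on the CD arrays, 31266 to 33478 on the PR arrays, and 30408 to 31672 on the FA arrays. A probe so marked is called bright, and a probe not so marked is called dim. Probes counted as bright were so on all 12 arrays. Each diet had a slide and a scan of its own, so the diet, the slide, and the scan cannot be told apart wherever diets are compared. Differences between mice of the same diet lie within a slide. The markers of whole brain were present: 8 of 8 neuron probes, 13 of 13 astrocyte probes, and 12 of 12 oligodendrocyte probes were well above background on all 12 arrays.

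All 5 member probes were also well above background on all 12 arrays, with 0 outlier spots and 0 saturated spots. On mm9 the Hba-a1 probe lies at chr11:32183955-32184014 on the plus strand, and it also matches the accession of Hba-a2, the second adult α globin gene. The Hbb-b1 probe (chr7:110961105-110961164, minus strand) and the Hbb-b2 probe (chr7:110962047-110962106, minus strand) are 882 bases apart. The accession of the Hbb-b1 probe is now named Hbb-bt, a gene of 1400 bases, whereas that of the Hbb-b2 probe keeps its name. As background, C57BL/6J mice carry the Hbb-bs and Hbb-bt pair of adult β globin genes. The gap of 882 bases between the 2 β probes is shorter than Hbb-bt, so by position both fit within 1 gene. Their signals therefore cannot be counted as readings of 2 separate β genes. Whether either probe also reads the other gene of the pair was not tested. The Alas2 probe lies at chrX:147004993-147005052 on the plus strand and the Slc4a1 probe at chr11:102210256-102210315 on the minus strand.

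The coding sequences under a pair of the globin probes are printed because the signals of an α and a β chain were read at these stretches. Each runs 5′ to 3′, has 60 bases, and reads through in 1 open frame. The Hba-a1 sequence is shared with the accession of Hba-a2.
Hba-a1 probe: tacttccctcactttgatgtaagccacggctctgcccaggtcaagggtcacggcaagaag
Hbb-b2 probe: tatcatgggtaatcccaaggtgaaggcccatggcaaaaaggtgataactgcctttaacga

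Values are given on the log2 scale of normalized intensity, as mean ± SD over 4 mice. A difference is the mean of the first diet minus that of the second from a limma fit of all 39429 probes on the 12 arrays, with its standard error (SE). It was called at a Benjamini-Hochberg adjusted p under 0.05. In the lists of other genes, a call was counted only where the diet with the higher mean had 50% or more of its spots well above background, a rule added after the data were seen. By that rule 8.92% of all probes were lower and 12.1% higher in PR minus CD, and 10.7% were lower and 14.7% higher in FA minus CD, which is the background for the counts in the lists. In a whole tissue, fewer cells of a type and less RNA per cell cannot be told apart.

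Hba-a1 encodes the α chain of adult hemoglobin. Its log2 value was 16.23, 16.11, 16.22, and 16.34 in CD 1 to CD 4, 16.40, 16.49, 15.90, and 16.21 in PR 1 to PR 4, and 16.27, 15.81, 16.14, and 16.42 in FA 1 to FA 4. The lowest brains were FA 2 and PR 3 and the highest was PR 2, while the CD brains lay close together inside the range of both other diets. The group means were 16.22 ± 0.10 in CD, 16.25 ± 0.26 in PR, and 16.16 ± 0.26 in FA. The whole range over 12 brains was 1.60-fold.

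Hbb-b1 encodes an adult β chain. It read 15.38, 15.24, 15.32, and 15.29 in the CD brains, 15.35, 15.43, 14.71, and 15.01 in the PR brains, and 15.22, 14.70, 14.97, and 15.14 in the FA brains, in the order of their numbers. Again FA 2 and PR 3 were lowest and PR 2 was highest. All FA brains were below all CD brains, and the PR brains overlapped both groups. Means were 15.31 ± 0.06 in CD, 15.12 ± 0.33 in PR, and 15.00 ± 0.23 in FA.

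Hbb-b2 is named for the minor adult β chain. The log2 values were 13.53, 13.48, 13.70, and 13.88 in CD 1 to CD 4, 13.53, 13.62, 13.01, and 13.21 in PR 1 to PR 4, and 13.44, 13.04, 13.32, and 13.48 in FA 1 to FA 4. PR 3 and FA 2 were the lowest brains once more, the highest was CD 4, and the groups overlapped. Mean levels were 13.65 ± 0.18 in CD, 13.34 ± 0.29 in PR, and 13.32 ± 0.20 in FA.

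Alas2 encodes the erythroid form of the enzyme that starts heme synthesis. It measured 10.86, 10.87, 10.88, and 11.00 in CD 1 to CD 4, 10.87, 11.13, 10.44, and 10.69 in PR 1 to PR 4, and 10.83, 10.29, 10.68, and 10.99 in FA 1 to FA 4. The low brains were FA 2 and PR 3 and the high brain was PR 2, as for the α chain, and the diets overlapped. The means were 10.90 ± 0.06 in CD, 10.78 ± 0.29 in PR, and 10.70 ± 0.30 in FA.

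Slc4a1 encodes band 3, the anion exchanger of the red cell membrane, which a cell type of the kidney also makes. Its values were 7.03, 7.00, 9.74, and 7.51 in CD 1 to CD 4, 6.75, 8.0, 6.84, and 6.77 in PR 1 to PR 4, and 7.60, 6.70, 7.17, and 7.15 in FA 1 to FA 4. CD 3 stood far above every other brain, PR 2 stood above the other PR brains, and the groups overlapped. The spot of CD 3 had a mean raw intensity of 961 and a median of 867 over its pixels, with a pixel SD of 34.4% of the mean, against 9.25% to 16.7% for the other 11 Slc4a1 spots. It carried no outlier mark. The means were 7.82 ± 1.30 in CD, 7.09 ± 0.61 in PR, and 7.16 ± 0.37 in FA, and the whole range was 8.20-fold.

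**Figure D1:**
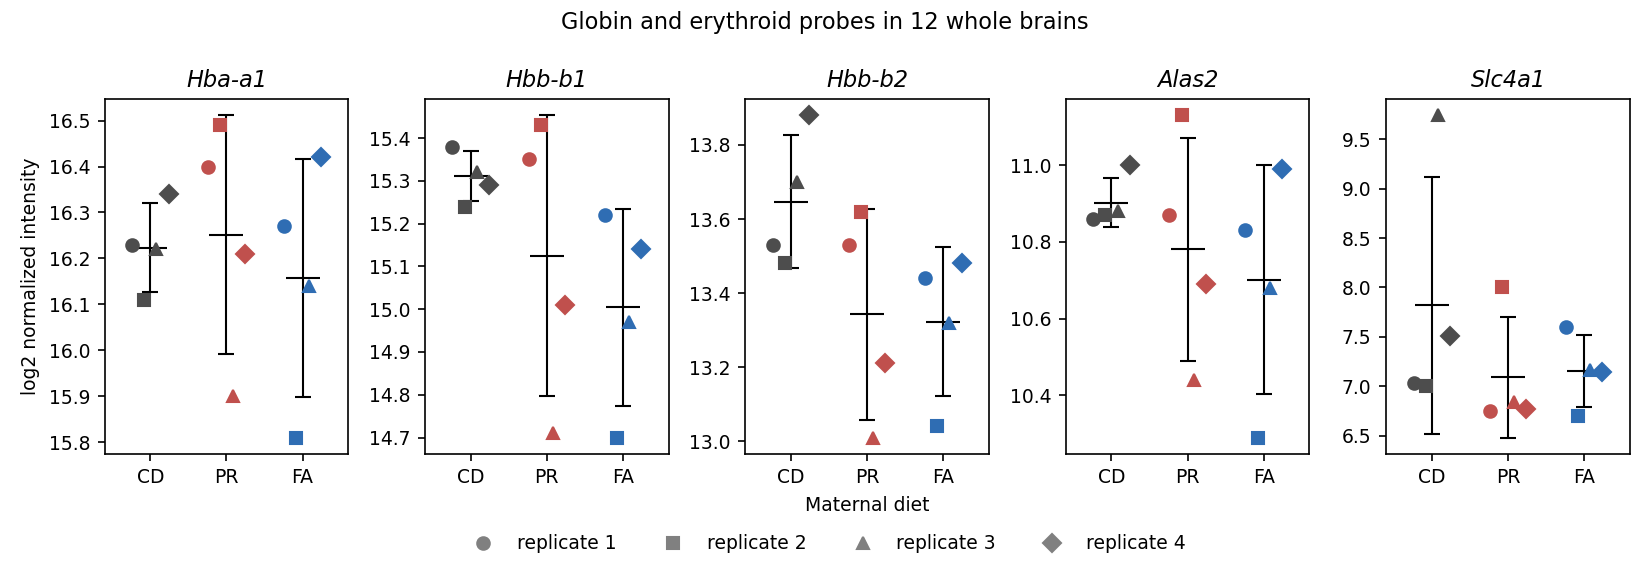
Log2 normalized intensity of the 5 member probes in each of the 12 brains, by maternal diet, with bars for the mean and SD of 4 mice. PR 3 and FA 2 are low for the globin probes and Alas2, and CD 3 stands at 9.74 for Slc4a1.

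The comparison of PR with CD addresses what maternal protein restriction left in the adult brain, here for the transcripts of red cells. The differences were 0.03 for Hba-a1 (SE 0.15, adjusted p = 0.906), -0.19 for Hbb-b1 (SE 0.16, adjusted p = 0.400), and -0.30 for Hbb-b2 (SE 0.15, adjusted p = 0.159). Alas2 differed by -0.12 (SE 0.16, adjusted p = 0.605) and Slc4a1 by -0.73 (SE 0.56, adjusted p = 0.357), and the difference of Slc4a1 was -0.09 without CD 3. By limma, 0 of 5 members were lower, where 16.6% of all probes were, and 0 were higher, where 13.4% were. None had an unadjusted p under 0.05 (0 of 5), and the Tukey test of the study's methods called 0 as well. The groups were apart without overlap for 0 of 5 members and for 33.2% of all probes. The median difference was -0.19 over the members (-0.05 without PR 3) and -0.02 over all probes.

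FA and CD differ in protein and in folic acid together, and this comparison shares its CD brains with the one above. Hbb-b1 differed by -0.31 (SE 0.16, adjusted p = 0.159), with 4 of 4 FA brains below every CD brain, and Hbb-b2 by -0.32 (SE 0.15, adjusted p = 0.126), with 3 of 4 FA brains below every CD brain. The differences were -0.07 for Hba-a1 (SE 0.15, adjusted p = 0.765), -0.20 for Alas2 (SE 0.16, adjusted p = 0.370), and -0.66 for Slc4a1 (SE 0.56, adjusted p = 0.393), the last being -0.03 without CD 3. By limma, 0 of 5 members were lower (18.0% of all probes) and 0 were higher (16.4%), with 0 at an unadjusted p under 0.05 and 0 by the Tukey test. Groups without overlap were seen for 1 of 5 members, Hbb-b1, and for 36.9% of all probes, so the members' share was not above that background. The median difference was -0.31 over the members and -0.01 over all probes. With arrays scaled to their 75th percentile, Hbb-b1 passed the threshold at -0.44 (adjusted p = 0.0391), where its adjusted p in the other settings reached up to 0.405.

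FA against PR asks what added folic acid changed under the same low protein, and here again each diet had its own slide. Both groups held a brain low in globins, PR 3 and FA 2, and the means were close. The differences were -0.09 for Hba-a1 (adjusted p = 0.835), -0.12 for Hbb-b1 (adjusted p = 0.794), -0.02 for Hbb-b2 (adjusted p = 0.973), -0.08 for Alas2 (adjusted p = 0.879), and 0.07 for Slc4a1 (adjusted p = 0.976). By limma, 0 of 5 members were lower (0.386% of all probes) and 0 were higher (0.228%), with 0 at an unadjusted p under 0.05 and 0 by the Tukey test. Groups were apart for 0 of 5 members and for 11.1% of all probes. The median difference was -0.08 over the members and 0.02 over all probes, and the members' median ran from -0.19 to 0.06 when single arrays were left out, so its direction is not settled.

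**Figure D2:**
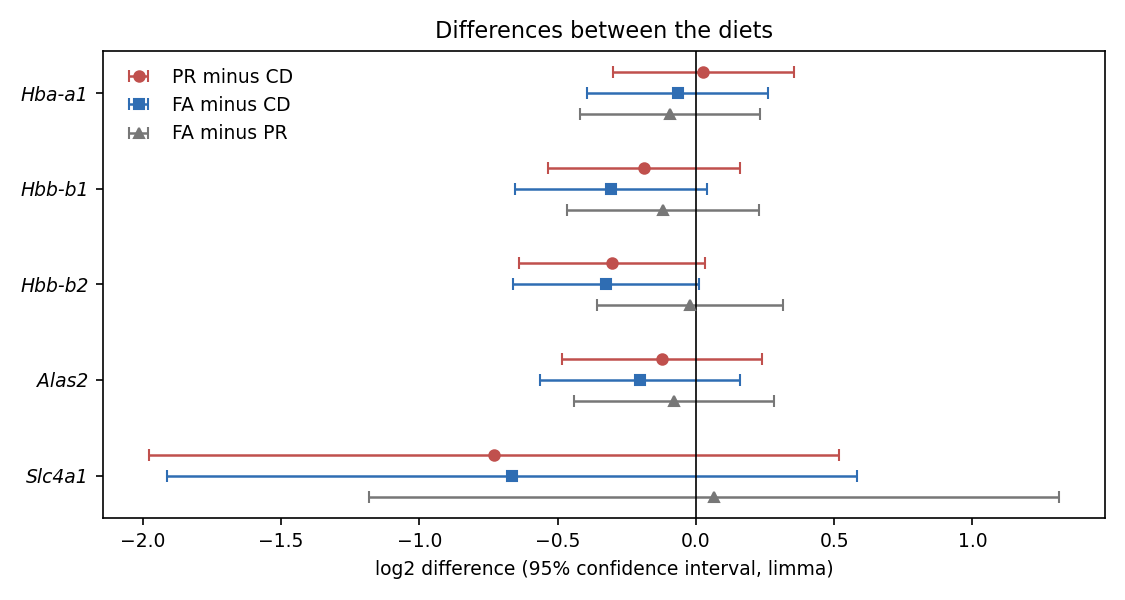
Fitted log2 differences of the 5 members between diets, with 95% confidence intervals from the limma fit of 12 arrays. Every interval spans 0, and those of Slc4a1 are the widest.

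Pooled over the diets, brains of the same diet differed more in these transcripts than in most others. Within CD this did not hold for Hba-a1, Hbb-b1, or Alas2. Over the 12 arrays the SD within a diet was 0.22 for Hba-a1, 0.23 for Hbb-b1, 0.23 for Hbb-b2, 0.24 for Alas2, and 0.85 for Slc4a1 on the log2 scale. The median over the 23753 probes well above background on all arrays was 0.10. The SD of Hba-a1 was larger than that of 89.4% of those probes, that of Hbb-b1 larger than 91.0%, that of Hbb-b2 larger than 90.2%, that of Alas2 larger than 91.8%, and that of Slc4a1 larger than 99.8%. The spread was unequal between diets: for Hba-a1 the SD was 0.10 in CD, 0.26 in PR, and 0.26 in FA, and for Hbb-b1 it was 0.06 in CD, 0.33 in PR, and 0.23 in FA. For Alas2 it was 0.06 in CD, 0.29 in PR, and 0.30 in FA. Hbb-b2 was more even, with 0.18 in CD, 0.29 in PR, and 0.20 in FA, and Slc4a1 was widest in CD, with 1.30 in CD, 0.61 in PR, and 0.37 in FA, whereas the median SD of all those probes was 0.10 in CD, 0.09 in PR, and 0.08 in FA.

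With the diet means removed, the α chain probe, the 2 β chain probes, and Alas2 went up and down together over the 12 brains. As a deviation from the diet mean, the mean of the 3 globin probes was -0.01, -0.12, 0.02, and 0.11 in CD 1 to CD 4, 0.19, 0.27, -0.37, and -0.10 in PR 1 to PR 4, and 0.15, -0.31, -0.02, and 0.18 in FA 1 to FA 4. PR 3 and FA 2 were lowest and PR 2 was highest, and the CD brains stayed nearest to their mean. The deviation of Alas2 was -0.34 in PR 3, -0.41 in FA 2, and 0.35 in PR 2.

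Correlations of these deviations were computed for 10 pairs of member genes over 12 arrays, with an exact two-sided permutation test over the 13824 orders of the arrays within diets. The 6 pairs among Hba-a1, Hbb-b1, Hbb-b2, and Alas2 had r from 0.867 to 0.970, with raw permutation p from 0.000145 to 0.00412 and adjusted p from 0.000723 to 0.00687. Spearman's rho for them was 0.839 to 0.923, with an adjusted permutation p from 0.00181 to 0.0194. The highest r, 0.970, was between Hba-a1 and Alas2, which lie on different chromosomes. The lowest, 0.867, was between Hbb-b1 and Hbb-b2, whose probes may read 1 gene. Without the 2 arrays farthest from the median of the first gene, PR 3 and FA 2, r was 0.711 to 0.921, so the relation remained without them. Each diet has 4 arrays, too few for a correlation within it, and the removal of the diet means also removed the slide.

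Slc4a1 had lower correlations with the other members. Its 4 pairs had r from 0.309 to 0.431, with raw permutation p from 0.101 to 0.192 and adjusted p from 0.145 to 0.192, and rho from 0.378 to 0.552, with an adjusted permutation p from 0.0569 to 0.192. Leaving out the 2 farthest arrays, r was 0.120 to 0.413. Without CD 3 these r were 0.625 with Hba-a1, 0.624 with Hbb-b1, 0.712 with Hbb-b2, and 0.726 with Alas2, and the adjusted permutation p stayed between 0.0583 and 0.122. Without CD 4 the pair with Hbb-b2 passed at an adjusted permutation p of 0.0240 (r = 0.534), where over all 12 sets that leave out an array this r ran from 0.295 to 0.712 and the adjusted p up to 0.427.

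**Figure D3:**
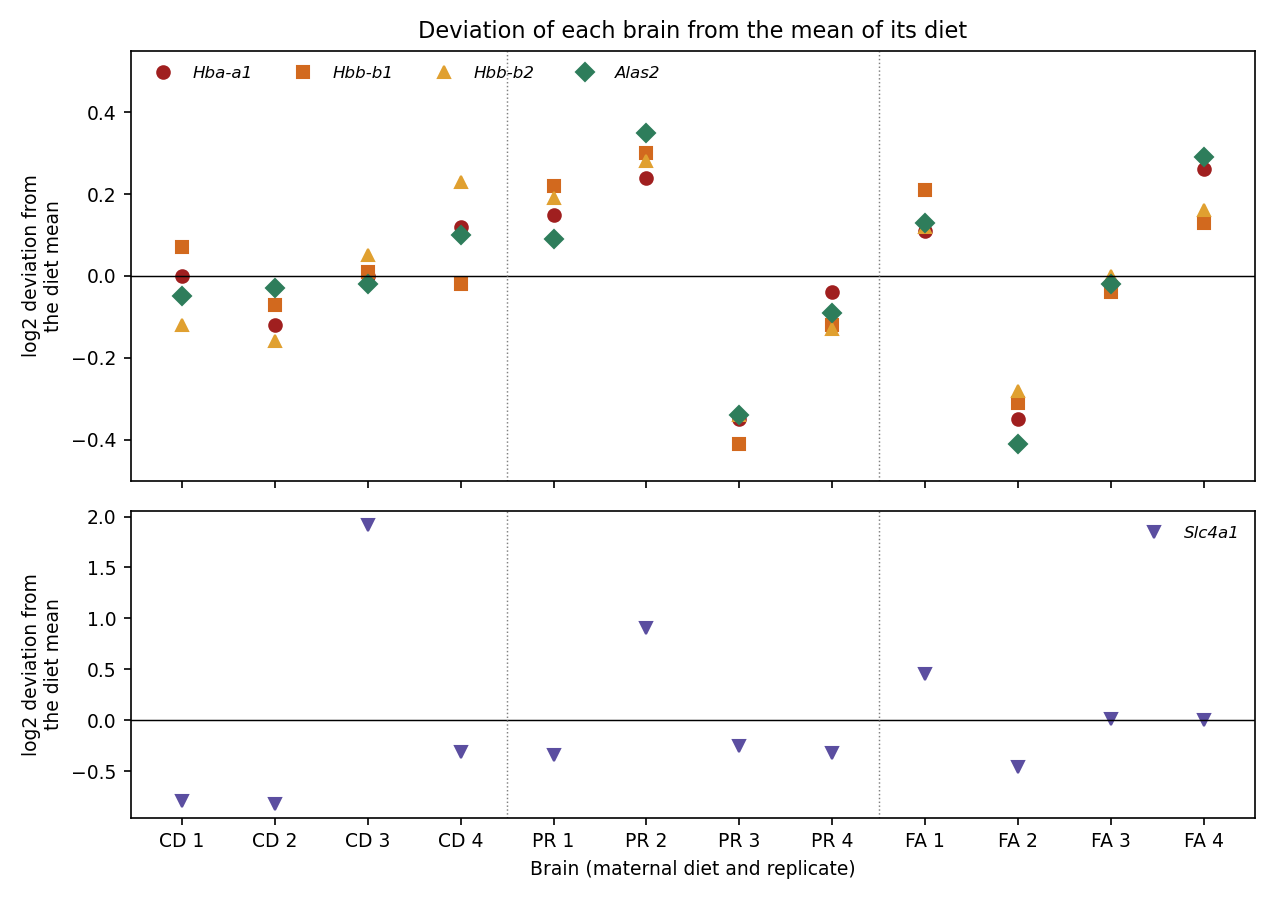
Deviation of each member from its diet mean, in log2 units, in each of the 12 brains. The globin probes and Alas2 move together, lowest in PR 3 and FA 2, while Slc4a1 has its highest deviation, 1.92, in CD 3.

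The mean deviation of the 3 globin probes was then compared with every named probe well above background on all 12 arrays. Alas2 had an r of 0.957 with this globin profile, and 0 of the 23227 named probes outside the members were higher. Slc4a1 had an r of 0.370. The median r over all 23753 bright probes was -0.01. Apart from the 3 globin probes that make up the profile, 4 of them, or 0.0168%, were at 0.9 or more. These r are descriptions over 12 arrays, the extremes of a search through many probes, and have no p.

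After Alas2, the most alike were Gm9992, a predicted gene (r = 0.945), Sik2, a salt-inducible kinase (0.936), and Cflar, an inhibitor of cell death through caspase 8 (0.907). They were followed by Dnahc7a, named for a dynein heavy chain (0.898), AU017455, an expressed sequence (0.890), Ifi47, a GTPase induced by interferon γ (0.881), and D10Bwg1379e (0.881). Slc16a7, a monocarboxylate transporter (0.879), Isg20, an RNA-degrading enzyme induced by interferon (0.877), and Usp36, a deubiquitinase (0.875), completed the 10 highest. The 4 lowest were Sdhaf1, an assembly factor of succinate dehydrogenase (-0.929), Mlf1ip, a centromere protein (-0.894), Clta, a clathrin light chain (-0.889), and Aqp11, an aquaporin (-0.881). Each kept its sign under every other normalization and without each array in turn, though r of Clta went to -0.645 with the normexp background correction.

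The promoters of the members that moved together are printed for Hba-a1, Alas2, and Hbb-bt, the current name of the Hbb-b1 accession. The sequences are from RefSeq on GRCm38.p6 and cover the 250 bases before the start of the gene, on the strand of the gene. By symbol, 2 of 5 members matched, Hba-a1 and Alas2, and Slc4a1 and Hbb-b2 are named only. Capitals mark matches to 4 motifs. They are GATAA, with TTATC on the other strand, then CACCC, with GGGTG on the other strand, then CCAAT, with ATTGG on the other strand, and TATAA, with TTATA on the other strand. Neighboring matches may share bases. As background, GATA1 and KLF1 are erythroid factors that bind motifs holding GATA and CACCC. Of 32851 promoters of this length, 22.6% hold GATAA, 52.0% hold CACCC, 33.8% hold CCAAT, and 22.8% hold TATAA.
Hba-a1 (chr11:32283422-32283671, plus strand): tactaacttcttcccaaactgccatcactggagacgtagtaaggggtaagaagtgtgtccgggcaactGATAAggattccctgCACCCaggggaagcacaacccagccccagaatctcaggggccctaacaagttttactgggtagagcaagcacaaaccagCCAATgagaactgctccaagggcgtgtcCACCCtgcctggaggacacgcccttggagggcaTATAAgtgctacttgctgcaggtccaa
Hbb-bt (chr7:103813924-103814173, minus strand): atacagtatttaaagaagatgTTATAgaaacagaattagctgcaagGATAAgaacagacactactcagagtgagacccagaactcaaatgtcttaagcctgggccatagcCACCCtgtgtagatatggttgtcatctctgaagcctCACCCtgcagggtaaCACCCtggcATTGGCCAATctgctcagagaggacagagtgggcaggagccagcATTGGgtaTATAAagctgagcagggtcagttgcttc
Alas2 (chrX:150547167-150547416, plus strand): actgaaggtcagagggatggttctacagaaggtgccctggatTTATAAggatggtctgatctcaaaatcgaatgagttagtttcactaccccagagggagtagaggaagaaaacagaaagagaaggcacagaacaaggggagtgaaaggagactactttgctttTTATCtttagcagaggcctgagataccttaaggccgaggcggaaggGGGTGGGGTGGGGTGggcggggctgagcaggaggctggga

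Hba-a1 had 1 match to GATAA, 2 to CACCC, 1 to CCAAT, and 1 to TATAA. The Hbb-bt window had 1 match to GATAA, 3 to CACCC, 3 to CCAAT, and 2 to TATAA. For Alas2 the counts were 1, 3, 0, and 2 in the same order. A match is a run of letters and does not show that a factor binds there.

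Among the other globin chain genes, 5 of 12 listed were on the array, with 6 probes. Hba-a2 was the only one well above background on all 12 arrays, and its probe also matches the accession of Hba-a1, so the signals of the α genes cannot be told apart. Its values were 17.96, 17.89, 17.84, and 17.73 in CD 1 to CD 4, 17.79, 17.83, 17.39, and 17.48 in PR 1 to PR 4, and 17.60, 17.36, 17.45, and 17.72 in FA 1 to FA 4. PR 3 and FA 2 were again low, and all FA brains were below all CD brains. The Hba-a2 probe was lower in FA than in CD, by -0.32 (SE 0.11, adjusted p = 0.0489, 4 of 4 brains), and its differences in PR minus CD (-0.23, adjusted p = 0.147) and FA minus PR (-0.09, adjusted p = 0.787) were not called, though with arrays scaled to their 75th percentile the difference in PR minus CD was called (-0.50, adjusted p = 0.00633). The call in FA minus CD was lost in 5 of 10 other settings (quantile normalization, the normexp correction, the replicate block, the Tukey test, and the stricter limits of the methods) and without each of CD 1, CD 2, CD 3, PR 4, FA 1, FA 2, and FA 3, with an adjusted p from 0.00384 to 0.147 over the settings. These alternatives for Hba-a2 were chosen after the data were seen. Its r with the globin profile was 0.809.

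The other chains were near background. Hbq1, a θ globin gene, read 5.64, 5.04, 5.38, and 5.15 in the CD brains, 4.57, 4.30, 4.37, and 4.73 in the PR brains, and 4.80, 4.51, 4.24, and 4.59 in the FA brains. The spot was bright on 1 of 4 arrays in CD and on all arrays in PR and FA, so no size or direction of change is given. A probe of Hbb-y, an embryonic β-like chain, read 4.46, 4.43, 4.40, and 3.83 in the FA brains, and its difference from CD was called (adjusted p = 0.0284). Its FA mean of 4.28 lay below the background level of its dim CD spots, 5.02, so no size or direction of change is given. With the normexp correction the difference was 0.07 (adjusted p = 0.268). The call of this probe was lost in 4 of 10 other settings and without 4 of the 12 arrays in turn. The other Hbb-y probe was not called (adjusted p = 0.416). Hba-x, the embryonic ζ chain, was dim on all 12 arrays.

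The globins outside red cells, neuroglobin (Ngb), cytoglobin (Cygb), and myoglobin (Mb), were bright with 4 of 4 probes. None was called in any comparison by limma, with 0 probes in PR minus CD, 1 in FA minus CD, and 1 in FA minus PR at an unadjusted p under 0.05, and 0 by the Tukey test after adjustment. Their median r with the globin profile was 0.322. Cygb, which took 97.2% of the list's summed intensity, read 14.88, 14.79, 14.83, and 14.85 in CD 1 to CD 4, 14.80, 14.97, 14.92, and 14.87 in PR 1 to PR 4, and 14.79, 14.63, 14.73, and 14.70 in FA 1 to FA 4. FA 2 was lowest and PR 2 highest for Cygb too, but PR 3, low for the red cell globins, was not low.

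All 14 probes of the other genes of heme synthesis, a pathway of every cell, were well above background. In PR minus CD 4 of them rose and 0 fell, and in FA minus CD 6 rose and 1 fell. The median differences were 0.07 and 0.08. Ppox, the enzyme that makes protoporphyrin, read 10.33, 10.37, 10.29, and 10.41 in the CD brains, 10.72, 10.66, 10.67, and 10.67 in the PR brains, and 10.86, 10.59, 10.86, and 10.79 in the FA brains. All CD brains lay below the others, by 0.33 for PR (SE 0.06, adjusted p = 0.00262) and 0.43 for FA (SE 0.06, adjusted p = 0.000492). Slc25a39, a mitochondrial carrier, rose by 0.29 (adjusted p = 0.00611) and 0.32 (adjusted p = 0.00292) in PR and FA, in 4 of 4 brains of each diet. Alad rose by 0.17 in PR (adjusted p = 0.0162) and 0.23 in FA (adjusted p = 0.00252). Of the probes of Slc25a37, mitoferrin 1, 1 fell by 0.85 in FA (adjusted p = 0.0293) and the other rose by 0.20 (adjusted p = 0.0408). The call of the first was lost in 2 of 10 other settings and without 5 of the 12 arrays in turn, and the difference was -0.47 with the normexp correction. The list's median r with the globin profile was -0.07, against -0.01 over all bright probes.

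Heme and iron handling had 22 probes, 18 of them bright. There were 2 lower and 4 higher in PR than in CD, and 2 lower and 6 higher in FA than in CD, with medians of 0.06 and 0.08. Tfrc, the transferrin receptor, was higher by 0.61 in PR (SE 0.08, adjusted p = 0.000347) and by 0.71 in FA (SE 0.08, adjusted p = 0.000132) at 1 of its 3 probes, in 4 of 4 brains each, and the other probes were not called. Hpx, hemopexin, which binds free heme, was higher by 0.50 (adjusted p = 0.00222) and 0.60 (adjusted p = 0.000687), or 0.21 and 0.30 with the normexp correction. Hmox1, the inducible enzyme of heme breakdown, read 9.57, 9.57, 9.50, and 9.57 in CD 1 to CD 4, 9.36, 9.36, 9.27, and 9.33 in PR 1 to PR 4, and 9.36, 9.25, 9.32, and 9.29 in FA 1 to FA 4. At this probe the difference was -0.23 in PR (adjusted p = 0.00209) and -0.25 in FA (adjusted p = 0.000923), with all PR and FA brains below all CD brains, and the other Hmox1 probe went up without a call (0.20 and 0.36). With the normexp correction the called difference in PR was -0.14. At 1 of 2 probes, Steap3, a ferrireductase, was lower in PR (-0.21, adjusted p = 0.0250) and FA (-0.18, adjusted p = 0.0449), and the other probe went up without a call (0.30 and 0.19). The PR call was lost in 4 of 10 other settings and without 3 of the 12 arrays in turn. Blvra, biliverdin reductase A, was higher in PR (0.20, adjusted p = 0.0246) and FA (0.33, adjusted p = 0.00185) at 1 of 2 probes, and the other was not called. The iron exporter Slc40a1 was higher in FA (0.39, adjusted p = 0.00252). The median r with the globin profile was 0.242, and Fth1, a ferritin chain that took 48.5% of the list's summed intensity, had an r of 0.644. The summed intensity itself had an r of 0.755 with the profile (rho 0.671).

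The red cell membrane list held 25 probes of 19 genes on the array, 15 of them bright. Rhag, Kel, Epb4.2, and Spna1, all parts of the red cell membrane, were dim on all 12 arrays. In PR minus CD 3 probes were higher, and in FA minus CD 4, and the probes called lower, of Rhag, Epb4.1, and Epb4.2, were not counted because under 50% of their CD spots were bright. The genes that rose are also known outside red cells: Cd59a, an inhibitor of complement, by 0.49 in PR (adjusted p = 0.00103) and 0.54 in FA (adjusted p = 0.000534), and Tmod1, a cap of actin filaments, by 0.43 (adjusted p = 0.00347) and 0.42 (adjusted p = 0.00320). At 1 of 2 bright probes Epb4.9, dematin, was higher by 0.23 in PR (adjusted p = 0.0446, a call lost in most alternatives) and 0.25 in FA (adjusted p = 0.0264), and the other probe was not called (0.01 and -0.07). The FA call of Epb4.9 was lost in 2 of 10 other settings and without 5 of the 12 arrays in turn. Icam4 was higher by 0.33 in FA (adjusted p = 0.0151). The median r with the globin profile was 0.195.

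Erythroid regulators had 13 probes, 7 of them bright, and Gata1, the defining factor, was dim on all 12 arrays. In PR minus CD 2 probes were higher, and in FA minus CD 1, and the calls of Gata1 were not counted. Epor, the erythropoietin receptor, which neural cells also express, read 10.20, 10.20, 10.18, and 10.16 in the CD brains, 10.36, 10.35, 10.35, and 10.42 in the PR brains, and 10.37, 10.41, 10.41, and 10.37 in the FA brains. It was higher than in every CD brain in both diets, by 0.19 in PR (SE 0.03, adjusted p = 0.00217) and 0.20 in FA (SE 0.03, adjusted p = 0.00102). Klf1, the other probe counted as higher in PR, was called at an adjusted p of 0.0223. Its PR mean of 4.31 lay below the background level of its dim CD spots, 5.02, so no size or direction of change is given. With the normexp correction the Klf1 difference was 0.21 (adjusted p = 0.0418). The Klf1 call was lost in 2 of 10 other settings and without 3 of the 12 arrays in turn. Ahsp, the chaperone of free α chains, was singled out after its values were seen: it read 4.77, 4.18, 4.43, and 4.40 in CD 1 to CD 4, 4.75, 7.36, 3.90, and 3.61 in PR 1 to PR 4, and 6.24, 5.13, 5.69, and 5.60 in FA 1 to FA 4. Its highest brain was PR 2, and it was well above background on 7 arrays. The r of Ahsp with the globin profile was 0.686, and the list's median r was -0.001.

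Red cell enzymes held 15 probes, 13 of them bright. In PR minus CD 2 were lower and 3 higher, and in FA minus CD 2 were lower and 2 higher. Bpgm, which makes the 2,3-bisphosphoglycerate that lowers the oxygen affinity of hemoglobin, read 11.85, 11.83, 11.88, and 11.91 in CD 1 to CD 4, 11.66, 11.80, 11.83, and 11.81 in PR 1 to PR 4, and 12.04, 12.03, 12.13, and 11.97 in FA 1 to FA 4. The FA brains were above all others. Bpgm was higher in FA than in CD by 0.18 (adjusted p = 0.0189) and than in PR by 0.27 (adjusted p = 0.0484), but the call against PR was lost without any single array, at an adjusted p from 0.0513 to 0.111. The call against CD was lost in 2 of 10 other settings and without 1 of the 12 arrays in turn. Pklr, a pyruvate kinase of liver and red cells, was called lower in FA than in PR (adjusted p = 0.0395), with all FA spots dim. That call was lost in 5 of 10 other settings, among them the normexp correction (-0.14, adjusted p = 0.244), and without 9 of the 12 arrays in turn. Fam46c was lower by -0.78 in PR (adjusted p = 0.000472) and -0.76 in FA (adjusted p = 0.000477), and Car2, carbonic anhydrase of red cells and oligodendrocytes, was higher by 0.34 in PR (adjusted p = 0.0168). The call of Car2 was lost in 3 of 10 other settings, and over the settings its difference went down to 0.22. The bright probes of Cat, catalase, went in opposite directions, 0.35 (adjusted p = 0.00731) and -0.32 (adjusted p = 0.0288) in PR and 0.50 (adjusted p = 0.000823) and -0.38 (adjusted p = 0.0111) in FA. For the Cat probe that went down, the PR call was lost in 4 of 10 other settings and without 2 of the 12 arrays in turn. The median r with the globin profile was 0.201.

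In FA minus PR, 17 of 18 lists had no call by limma, the exception being the red cell enzymes. Of 242 probes of all these lists 28 had an unadjusted p under 0.05, 2 passed after adjustment, and 0 passed by the Tukey test.

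Other cells of blood were read as well. Granulocyte markers had 17 probes, 10 of them bright, and a median r of 0.612 with the globin profile. S100a8, a calcium-binding protein of neutrophils, read 6.97, 6.88, 7.10, and 7.19 in CD 1 to CD 4, 7.01, 9.94, 7.01, and 6.11 in PR 1 to PR 4, and 9.29, 6.14, 8.72, and 7.84 in FA 1 to FA 4. PR 2, FA 1, and FA 3 were high and PR 4 and FA 2 were low, so the order was like that of the globins in PR 2 and FA 2 but not in PR 1, PR 3, FA 3, or FA 4. S100a9, its partner, read 9.01, 8.94, 8.91, and 8.93 in CD, 9.36, 11.94, 8.99, and 7.96 in PR, and 11.40, 8.16, 10.99, and 9.84 in FA. The log2 of the summed intensity of the list was 15.59, 15.60, 15.52, and 15.60 in CD 1 to CD 4, 15.50, 15.88, 15.53, and 15.50 in PR 1 to PR 4, and 15.74, 15.59, 15.61, and 15.62 in FA 1 to FA 4. That sum had an r of 0.536 with the globin profile (rho 0.357). Csf3r took 93.3% of the sum, and Mmp8 and Cxcr2 were dim on all 12 arrays. S100a8 and S100a9 were named after their values were seen. By limma 0 probes were lower and 1 was higher, Mmp9, in PR minus CD (0.32, adjusted p = 0.0413) and in FA minus CD (0.39, adjusted p = 0.0158). The PR call was lost in 6 of 10 other settings and without 7 of the 12 arrays in turn, and the FA call in 4 of 10 settings, and with the normexp correction the differences were 0.09 and 0.12. The part of granulocytes in the globin values was not tested.

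Platelet markers had 18 probes, 8 of them bright, with 1 lower and 1 higher in PR minus CD, 1 lower and 3 higher in FA minus CD, and a median r of 0.072. Pf4, the platelet chemokine that took 32.2% of their summed intensity, read 9.34, 9.39, 9.35, and 9.36 in CD, 9.38, 9.63, 9.17, and 9.40 in PR, and 9.56, 9.39, 9.50, and 9.27 in FA. PR 2 was highest and PR 3 lowest for Pf4, which was chosen as the list's brightest gene. At 1 of 3 bright probes Gp1bb was higher by 0.44 in PR (adjusted p = 0.00457) and 0.37 in FA (adjusted p = 0.00963), and the others were not called (-0.24 and 0.02 in PR, -0.29 and -0.03 in FA). With the normexp correction the called differences were 0.27 and 0.19. Gp5, bright on 2 of 4 arrays in CD, was higher by 0.47 in FA (adjusted p = 0.00567), or 0.17 with the normexp correction, and Gp1ba and Gp6 were dim on all 12 arrays.

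Lymphocyte markers had 15 probes, only 3 of them bright, and Ms4a1 and Cd3g were dim on all 12 arrays. There were 1 lower and 2 higher in PR minus CD, 1 lower and 2 higher in FA minus CD, and a median r of 0.334, and the calls of Ms4a1, Cd3g, Cd8a, and Cd79a were not counted because under 50% of their CD spots were bright. Cd5 was higher by 0.63 in FA (adjusted p = 0.000447) and by 0.27 in PR (adjusted p = 0.0410), the PR call being lost in 6 of 10 other settings and without 9 of the 12 arrays in turn. With the normexp correction these were 0.27 and 0.12. A probe of Cd2, bright on 3 of 4 arrays in CD, was lower by -1.25 in FA (adjusted p = 0.0162) and by -1.06 in PR (adjusted p = 0.0382), the PR call being lost in 5 of 10 other settings and without 6 of the 12 arrays in turn and the difference being -0.35 with the normexp correction. The other Cd2 probe was dim on all 12 arrays.

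Markers of vessels, which hold the blood, were bright with 15 of 15 endothelial and 9 of 9 mural cell probes. Of the endothelial probes 0 fell and 6 rose in PR minus CD, and 2 fell and 6 rose in FA minus CD, with medians of 0.17 and 0.08 and a median r of 0.315 with the globin profile. Tek, a receptor of endothelium, rose by 0.76 in PR (adjusted p = 0.00318) and 0.88 in FA (adjusted p = 0.00116), or 0.40 and 0.48 with the normexp correction, and a probe of Ly6c1 by 0.59 (adjusted p = 0.00163) and 0.64 (adjusted p = 0.000846). Flt1 (-0.33, adjusted p = 0.00301) and 1 of 2 probes of Kdr (-0.39, adjusted p = 0.0173) were lower in FA. Of the mural probes 0 fell and 2 rose in PR minus CD and 0 fell and 1 rose in FA minus CD, with a median r of 0.061. Rgs5, a marker of pericytes, rose by 0.57 in PR (adjusted p = 0.000355) and 0.22 in FA (adjusted p = 0.0392), and the FA call was lost without 7 of the 12 arrays in turn.

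The remaining lists gave the cells of brain and its neighbors. The median r with the globin profile was 0.059 for neuron, 0.164 for astrocyte, 0.125 for oligodendrocyte, 0.206 for microglia, and 0.098 for choroid plexus markers. For pituitary markers it was 0.344, over only 3 bright probes of 9. The summed intensity of the pituitary list had an r of 0.046 with the profile (rho -0.035). In PR minus CD, 1 neuron probe was lower and 2 higher, 2 astrocyte probes were lower and 3 higher, 1 oligodendrocyte probe was lower and 6 higher, and 2 microglia probes were lower and 3 higher. In FA minus CD the counts were 0 and 2, 3 and 2, 1 and 4, and 2 and 3. Choroid plexus had 1 lower and 1 higher in PR and 2 lower and 0 higher in FA. Pituitary had 2 lower and 0 higher in each.

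The pituitary hormones were the largest differences among the probes named from these lists. Gh, growth hormone, read 7.84, 8.37, 7.73, and 7.82 in CD 1 to CD 4, 2.24, 2.27, 3.10, and 2.84 in PR 1 to PR 4, and 2.58, 2.27, 2.26, and 6.16 in FA 1 to FA 4. Prl, prolactin, read 7.89, 7.84, 7.98, and 7.91 in CD, 3.83, 3.09, 3.83, and 2.65 in PR, and 2.41, 2.47, 2.39, and 7.35 in FA. All CD brains and FA 4 were high for both hormones, unlike the order of the globins. In PR, where the spots were dim, Gh was at least 19.8-fold lower (adjusted p = 0.000549) and Prl at least 18.7-fold lower (adjusted p = 0.00562) than in CD. These bounds hold for the deposited normalization, and with the normexp correction the differences were 3.82-fold for Gh (adjusted p = 0.000127) and 3.13-fold for Prl (adjusted p = 0.00188).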

How the data were processed

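Arrays measured mRNA in 12 whole brains, 4 per diet. The authors deposited spot intensities from Agilent Feature Extraction 11.0.1.1, corrected for background within each array, and other columns with flags of 0 or 1 per spot. The authors also deposited a table of linear intensity per probe after qspline normalization. Its log2 was used here for 39429 probes, and qspline rewritten in R (100 quantiles, 5 iterations, details chosen to match the table) differed from it by at most 0.0017. The number of arrays limits the precision.

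A single limma fit (version 3.58.1, R 4.3.3) held the 3 diets, with Benjamini-Hochberg adjustment over all probes. Correlations used exact permutations in Python 3.11.15 with numpy 2.4.6. A probe was bright on an array with 50% or more of its spots there well above background, and probes counted as bright were so on all 12 arrays. Against a dim group, a fold is a lower bound from its background level, and none is given where the other mean lay below that level. The members and lists were chosen with earlier results of these data known. Named genes were all members, the 10 highest and 5 lowest correlations with the globin profile, and up to 4 called probes with the largest difference per list and comparison; a few of these are not reported here. Alternatives were other normalizations, background correction, tests, limits, filters, a replicate block, and leaving out each array. The alternatives for listed probes and for likeness to the globins were chosen after the data were seen. Methylation arrays were not used here.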

Additional observations from a re-analysis of the deposited data

Results flagged for a closer look

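In groups of 4 brains, a brain was noted where its gap to the nearest other brain, as a share of the group's range, was above Dixon's 95% limit. This held for 18 of 267 groups, where chance gives about 1 in 20.

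Among the members it held for Slc4a1 in PR 2, with a log2 value of 8.0. The Slc4a1 value of 9.74 in CD 3 came short of that limit, with a gap of 0.813 of the range.

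Among genes like the globins, Cflar stood apart in FA 2 at 6.65. Among globins and genes of heme and iron, the brains were FA 4 for Hbb-y at 3.83, PR 1 at 6.90 and FA 4 at 7.95 for Slc25a37, and CD 3 for Hmox1 at 9.50.

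Red cell genes gave CD 2 for Cd59a at 10.27, CD 4 for Epb4.9 at 12.60, PR 4 for Epor at 10.42, and CD 2 for Car2 at 13.88. The platelet gene Gp1bb stood apart in CD 4 at 6.92.

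Pituitary hormones gave CD 2 at 8.37 and FA 4 at 6.16 for Gh and FA 4 at 7.35 for Prl. Brain cell markers gave FA 3 for Snap25 at 15.56, CD 2 for Aqp4 at 12.57, CD 3 for Cx3cr1 at 9.87, and CD 4 for Aif1 at 10.83.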

How the results depend on the processing

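The counts of 0 called members in PR minus CD and FA minus PR stayed at 0 in 10 other settings and without each array, also with the replicate block, which gave 0, 0, and 0 in the 3 comparisons. The main fit did not treat the replicate numbers as pairs across diets. The correlation of arrays with the same number was -0.06 to 0.20, and the best partner had the same number in 6 of 12 cases. In each diet the replicate number was also the position of the array on its slide. In FA minus CD the count was 1 with scaling to the 75th percentile, Hbb-b1, and 0 otherwise; the cause was not tested. The median member difference in PR minus CD was -0.34 to -0.19 under other normalizations and -0.29 to -0.05 without single arrays. In FA minus CD it was -0.41 to -0.31 and -0.36 to -0.20, and in FA minus PR -0.08 to -0.06 and -0.19 to 0.06. The count of correlated pairs was 6 of 10 under every normalization and 6 or 7 without single arrays.

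Of 101 called differences chosen from the lists, 101 kept their direction in every alternative, 64 lost their call at no alternative other than the methods' limits of 2-fold and 0.0001, and 9 lost it in most alternatives (Hba-a2 and Nefl in FA minus CD, Cd5, Mmp9, Epb4.9, Csf1r, and Kcnj13 in PR minus CD, Bpgm and Pklr in FA minus PR). With scaling to the 75th percentile the calls over all probes in FA minus PR were 116 lower and 23 higher, against 152 and 90, and with the normexp correction those in PR minus CD were 3681 and 4664, against 6532 and 5288. Signal near background limits Hbq1, Hbb-y, Klf1, Pklr, Epb4.1, and Cd79a. With the normexp correction Gh and Prl were 3.82-fold and 3.13-fold lower in PR than in CD, against bounds of 19.8 and 18.7.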
